A study of Mus musculus and Rattus norvegicus with 28 samples.

Results

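At postnatal day 7 (P7), genes with an accessible promoter were compared with genes without one, by transcript level within that single time point. A gene counted as having a promoter peak when any base of an ATAC-seq peak lay within 2.5 kb of any of its annotated transcript starts. Its level was the FPKM (fragments mapped per unit of transcript length and of library size) summed over its transcripts and averaged over both RNA-seq libraries. Of 55413 genes, 16999 had a peak in both P7 peak lists, 3410 in 1 list and 35004 in neither. For 21938 protein-coding genes, the numbers were 12611, 1494 and 7833.

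The study followed mouse cardiomyocytes through birth by ATAC-seq, which cuts open chromatin with the Tn5 transposase, and by RNA-seq. The P7 cells were isolated from left ventricles of wild-type C57BL/6 males and females by trypsin and collagenase digestion, and were left to settle on uncoated plastic so that attaching cells could be discarded. RNA-seq used mRNA selected by its poly(A) tail. Each assay had 2 libraries, which the study describes as biological replicates. The animals in each library are not given, and nothing ties an ATAC-seq library to the RNA-seq library of the same number. Comparisons are therefore between genes, and the libraries give the spread of each value.

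A promoter is the stretch around a transcript start where the polymerase machinery assembles, and it is usually depleted of nucleosomes when the gene is in use. Promoters of broadly used genes tend to be rich in CpG dinucleotides, whereas many tissue-restricted and inducible genes start from CpG-poor promoters with a TATA box. An open promoter is not the same as a transcribed gene, because a promoter can be held open in a poised state or share its open region with a neighbouring start.

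Before any comparison, the libraries were checked against their label. The 20 cardiomyocyte genes were all higher in RNA-seq library 1, with a median ratio of 2.32 to library 2 over the 18 that were expressed, while the median ratio over 11357 expressed protein-coding genes was 1.01. The summed level of the cardiomyocyte list was 3395 and 1654 FPKM, and that of the 12 fibroblast genes was 4249 and 5000 FPKM. The median level of the cardiomyocyte list was 95.9 FPKM, and its highest gene, Tnnt2, was at 710 and 330 FPKM. Titin (Ttn), the giant sarcomeric spring, was the lowest of the list. It was at 0.626 and 0.310 FPKM, below the level called expressed here. All 12 endothelial genes, all 10 smooth muscle and pericyte genes and 7 of 10 macrophage genes were also expressed. Of all protein-coding genes 51.8% were expressed. The median levels of these 3 lists were 43.1, 5.89 and 3.23 FPKM. No defining marker of these lists was at 0. The part that other cells had in the results below was not tested. In bulk libraries, fewer cells of a type and less RNA per cell cannot be told apart.

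The peak lists differed in cardiomyocyte and endothelial markers. In RNA the endothelial genes had a median ratio of 1.15 of library 1 to library 2, with 8 of 12 higher in library 1. List 1 held 49113 peaks and list 2 held 35898. The 5 cardiomyocyte genes with a peak in 1 list, Ttn, Mybpc3, Actc1, Myl2 and Ryr2, had it in list 2. The 6 such endothelial genes, Fabp4, Tek, Tie1, Cdh5, Pecam1 and Adgrf5, had it in list 1. List 1 thus held promoter peaks for 11 of 20 cardiomyocyte and 10 of 12 endothelial genes, and list 2 for 16 and 4. Genes open in list 1 alone were also found among the fibroblast (Thy1), smooth muscle and pericyte (Abcc9 and Mcam), macrophage (Lyz2), epicardial (Upk3b and Krt19) and extracellular matrix genes (Col6a1 and Mmp14). List 1 alone also held promoter peaks for 13 of 1093 olfactory receptor genes, 14 of 365 Zfp genes and 2 of 82 ribosomal protein genes (Rpl37a and Rpl32). The same held for 2 of 327 vomeronasal receptor genes and 2 of 20 regulators of other lineages (Foxa2 and Pdx1). List 2 alone held peaks for 2, 5, 2, 1 and 0 genes of these lists in that order. Of all 21938 protein-coding genes, 935 had a peak in list 1 alone and 559 in list 2 alone. The plot of both marker lists by library shows these gaps gene by gene.

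**Figure D1:**
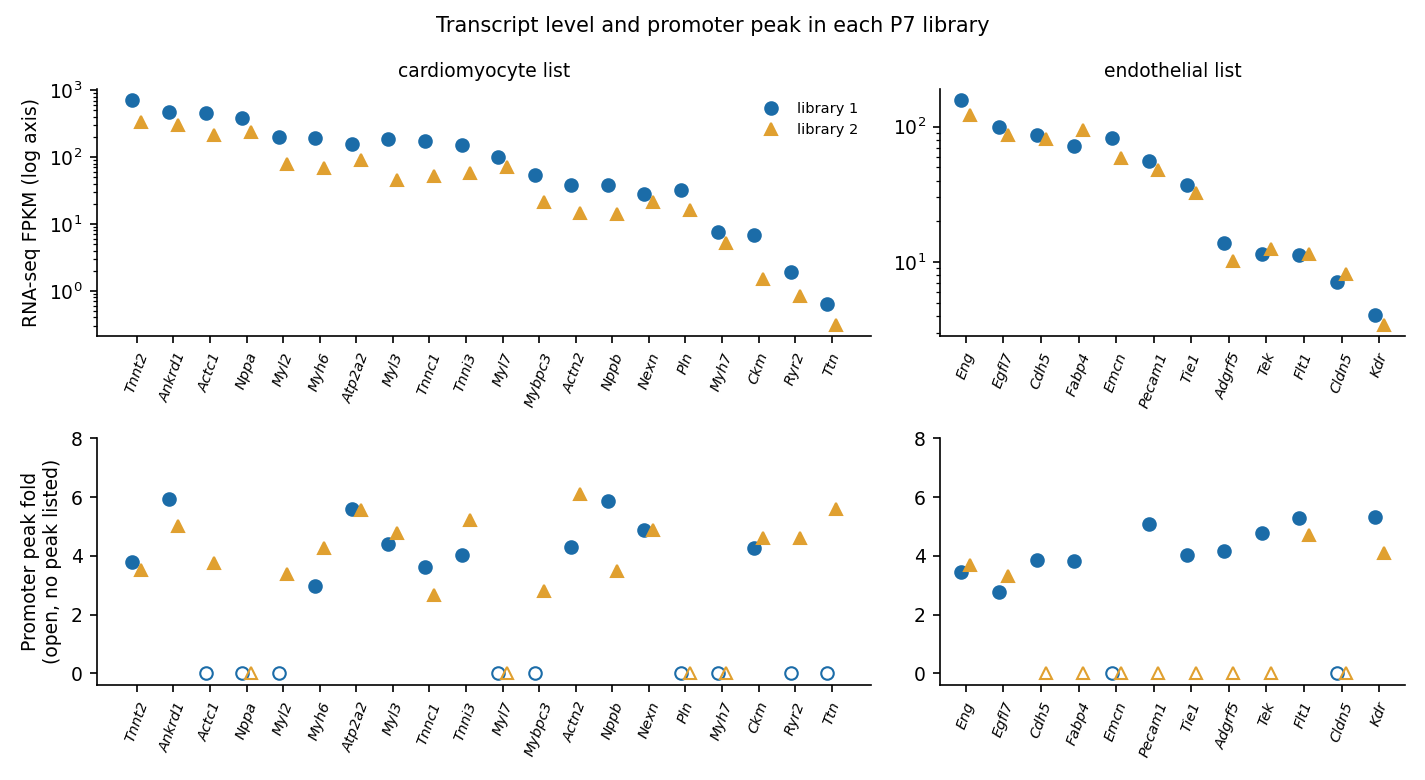
FPKM (upper panels, log axis) and strongest promoter peak fold enrichment (lower panels) of the cardiomyocyte and endothelial genes in the 2 RNA-seq and 2 ATAC-seq libraries of P7, with RNA and ATAC libraries of the same number not known to be the same cells. Filled symbols are listed peaks and open symbols at 0 mark a gene with no promoter peak in that list. The cardiomyocyte genes are higher in RNA-seq library 1, and the genes with a peak in 1 list split by list between the panels.

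Sequences of the promoters that the results turn on are printed first. Each is the 100 bases before the start that most annotated transcripts of the gene share, 5′ to 3′ on the gene's strand, from RefSeq GRCm38.p6, the sequence of mm10. Capitals mark CG dinucleotides and matches to TATAAA and to TGANTCA, the AP1 site, on either strand. None of these windows overlaps an annotated exon. Rplp1 and Rplp0 encode ribosomal stalk proteins and were among the most abundant transcripts with a peak in both lists.
Rplp1, chr9:61914543-61914642, minus strand: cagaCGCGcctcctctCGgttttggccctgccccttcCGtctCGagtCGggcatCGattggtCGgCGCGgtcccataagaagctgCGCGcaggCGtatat
Rplp0, chr5:115559367-115559466, plus strand: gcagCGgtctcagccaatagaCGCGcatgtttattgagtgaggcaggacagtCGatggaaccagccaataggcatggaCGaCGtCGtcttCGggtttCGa
Saa3 (an acute-phase protein), Mmp3 (the matrix protease stromelysin) and Nppa (the atrial natriuretic peptide) were the 3 most abundant protein-coding transcripts without a peak, and Cox7b is an X-linked respiratory chain subunit without one.
Saa3, chr7:46715701-46715800, minus strand: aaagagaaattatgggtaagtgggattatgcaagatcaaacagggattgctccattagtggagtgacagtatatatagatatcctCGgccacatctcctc
Mmp3, chr9:7445722-7445821, plus strand: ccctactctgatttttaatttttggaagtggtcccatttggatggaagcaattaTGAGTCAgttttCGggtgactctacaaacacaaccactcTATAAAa
Nppa, chr4:148000622-148000721, plus strand: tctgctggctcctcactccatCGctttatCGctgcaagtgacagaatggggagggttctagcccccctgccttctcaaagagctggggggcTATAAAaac
Cox7b, chrX:106015600-106015699, plus strand: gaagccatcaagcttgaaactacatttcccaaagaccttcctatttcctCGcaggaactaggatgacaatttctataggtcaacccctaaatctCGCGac
Catspere2 (a subunit of the sperm calcium channel) and Tshr (the thyrotropin receptor) were silent genes under strong peaks.
Catspere2, chr1:177983323-177983422, plus strand: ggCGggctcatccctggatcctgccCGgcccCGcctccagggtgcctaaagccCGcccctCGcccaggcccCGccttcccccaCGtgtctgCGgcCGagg
Tshr, chr12:91384463-91384562, plus strand: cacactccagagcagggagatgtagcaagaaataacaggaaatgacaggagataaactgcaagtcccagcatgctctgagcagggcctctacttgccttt
The windows of Rplp1, Rplp0 and Catspere2 held 13, 9 and 9 CG dinucleotides. Those of Saa3, Mmp3 and Nppa held 1, 1 and 2, that of Cox7b held 3 and that of Tshr held 0. TATAAA stood close to the start of Mmp3 and Nppa, and TGANTCA was found once, in Mmp3.

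Transcript level and an open promoter went together in most genes. A gene was called expressed at an FPKM of at least 1 in both libraries, which 22.2% of all genes reached, and silent at an FPKM under 0.1 in both, which held for 65% of all genes. Of the genes with a peak in both lists, which were 30.7% of all, 10717 (63.0%) were expressed and 3318 (19.5%) were silent. Of the genes with no peak, 998 (2.85%) were expressed and 30603 (87.4%) were silent. The difference in the expressed share was 60.2 percentage points. Each RNA-seq library set against each peak list alone gave 54.4 to 57.9 points, with an SD of 1.97 over the 4 combinations, which is small against the difference. The median FPKM was 4.14 with a peak in both lists and 0 with none, a difference of 2.36 on the log2(FPKM + 1) scale with a range of 1.88 to 2.19 over the 4 combinations. In a combination, genes with a peak in 1 list only join the peak or the no-peak class, so both reported differences lie outside these ranges. The 4 combinations reuse the same libraries and are not independent. Genes and their transcripts are not replicates, and no p is given for comparisons over them.

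Among protein-coding genes, 51.8% were expressed overall. With a peak in both lists, 10364 of 12611 (82.2%) were expressed, the median FPKM was 8.24 in library 1 and 8.18 in library 2, and 703 (5.57%) were silent. With a peak in 1 list, 512 of 1494 (34.3%) were expressed and the median FPKM was 0.294. With none, 481 of 7833 (6.14%) were expressed, and the median was 0 in both libraries. From the other side, 91.3% of the expressed protein-coding genes had a promoter peak in both lists, 4.51% in 1 list and 4.24% in neither. Of the silent ones, 9.34% had a peak in both. Expressed genes had a median of 5 annotated transcripts with a peak in both lists and 3 with none. Silent genes had medians of 3 and 2. A peak near any annotated start counted, and the part of transcript number in these shares was not tested.

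The share of promoters with a peak in both lists rose with FPKM up to about 10 and was flat above it. In RNA-seq library 1 it was 6.81% of protein-coding genes listed at 0, 25.9% of those above 0 to 0.1 FPKM, 51.0% of those above 0.1 to 1, 86.4% of those above 1 to 10, 94.2% of those above 10 to 100 and 95.4% of those above 100. In library 2 these shares were 6.86%, 27.2%, 51.0%, 87.0%, 94.4% and 94.9%. Both libraries gave the same order of bands. A transcript of 1 kb at an FPKM of 1 corresponds to about 33.3 and 35.9 reads of 150 bp in the 2 libraries, as worked out from coverage and FPKM, and at 0.1 FPKM to 3.33 and 3.59, so that the lowest bands rest on few reads.

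**Figure D2:**
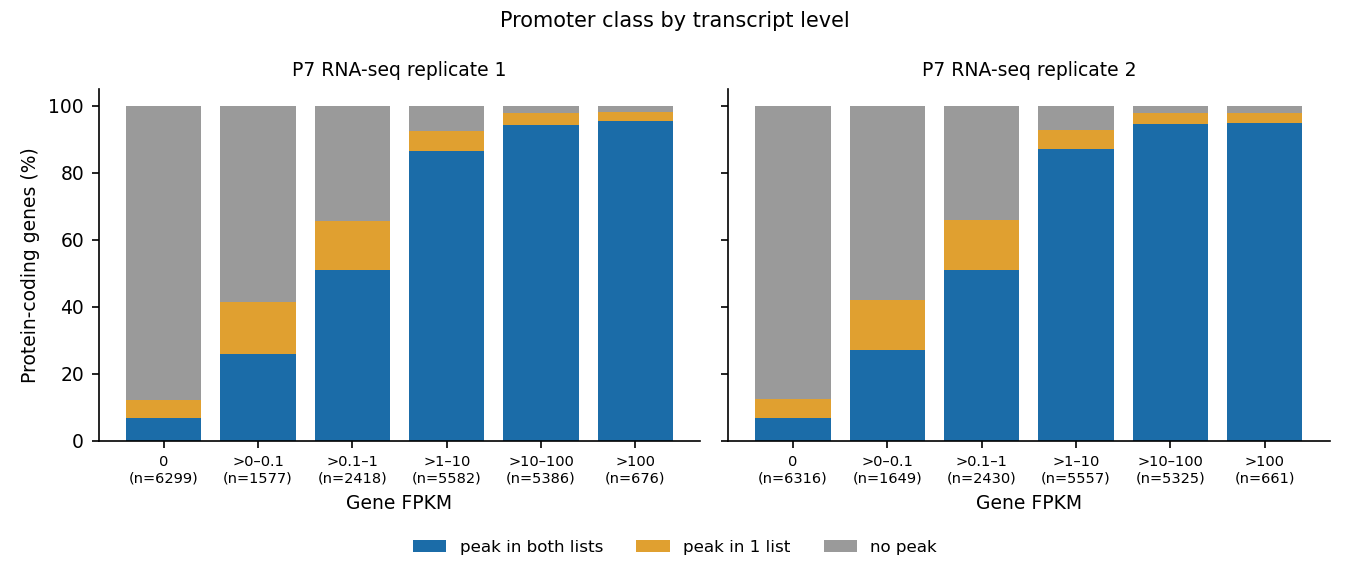
Share of protein-coding genes with a promoter peak in both P7 lists, in 1 list or in neither (stacked bars, % of genes) by gene FPKM band, in each P7 RNA-seq library. The share with a peak in both lists goes from under 7% of genes listed at 0 to over 94% above 10 FPKM, and both libraries give the same shape.

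The distance from the start to the nearest peak ordered the transcript level as well. For the 10217 protein-coding genes whose start lay inside a peak in both lists, the median FPKM was 9.90 and 88.0% were expressed. The median fell to 4.72 for a start within 250 bp of a peak, to 1.44 for 250 to 500 bp and to 1.09 for 500 to 1000 bp. At 1000 to 2000 bp the median was 0.639. The 139 genes just inside the limit, at 2000 to 2500 bp, had a median of 0.346 FPKM and 36.7% were expressed. The 172 genes just outside it, at 2500 to 3000 bp, had a median of 0.261 FPKM and 32.6% were expressed. The level fell with distance on both sides of 2.5 kb, with no step there. More than 50 kb from a peak, 4.38% of 4570 genes were expressed.

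**Figure D3:**
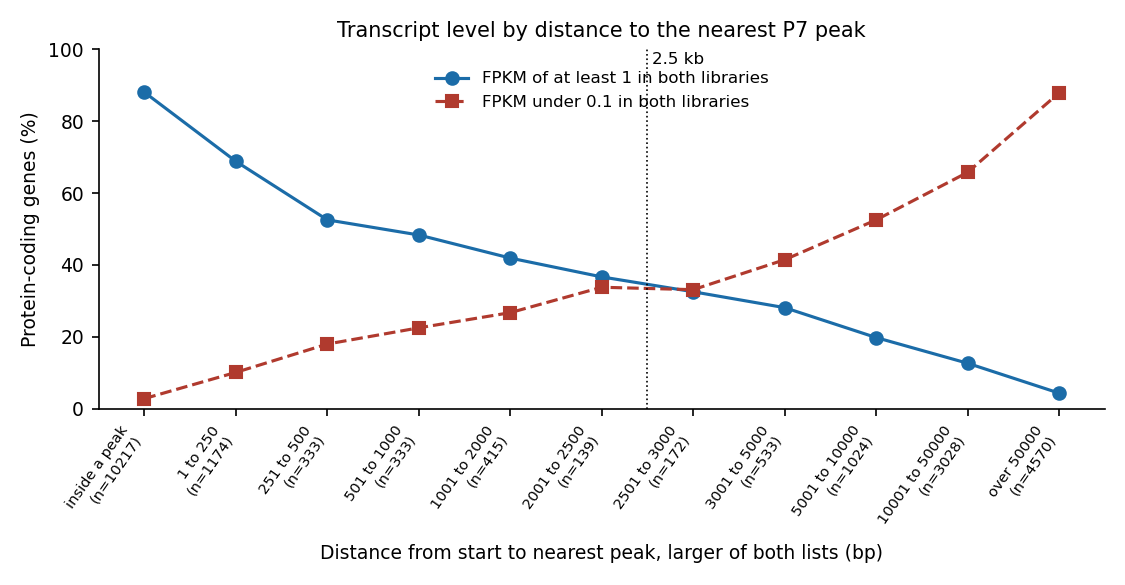
Share of protein-coding genes called expressed (circles) or silent (squares) at P7 by the distance in bp from the nearest transcript start to the nearest peak, taking the larger of the distances to the 2 lists. The dotted line is the 2.5 kb limit, and both curves pass through it without a step, at 36.7% and 32.6% expressed on either side.

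Gene types behaved differently. Of 5854 lincRNA genes, 947 had a peak in both lists and 64 of these were expressed (6.76%, against 0.451% without a peak). Antisense genes had a peak in both lists more often than these, at 953 of 2959 (32.2%), but 60 of the 953 were expressed. For genes annotated as bidirectional promoter lncRNAs, which by definition start beside another gene, 161 of 190 had a peak and 17 of those were expressed. Of 9940 processed pseudogenes, 92.9% had no peak, as had 409 of the 453 expressed ones. With a peak in both lists 6.91% of them were expressed, and with none 4.43%. These copies share sequence with their parent genes, so reads of copy and parent cannot be told apart and their levels are uncertain. The RNA kit is not stated to mark the strand, so reads of an antisense gene and of its partner cannot be told apart. The remaining results are for protein-coding genes unless stated.

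How strongly a promoter was enriched said little about how much was transcribed. Strength was the fold enrichment over background that the peak caller gave for the strongest promoter peak, averaged over both lists. Across 12611 protein-coding genes with a peak in both lists, the Spearman correlation with FPKM was 0.096, and across the 10364 expressed ones it was -0.045. The sign over expressed genes depended on the peak value used, at 0.054 with the −log10 q and 0.041 with the number of promoter peaks. With all gene types the correlations of the fold were 0.138 and -0.031. On the same 16999 genes, list 1 alone gave 0.081 and 0.085 with the 2 RNA-seq libraries and list 2 alone 0.176 and 0.180. Leaving out ATAC-seq replicate 1, so that list 2 also chose the genes, gave 0.228. As a yardstick, strength in list 1 and list 2 correlated at 0.732 and FPKM in libraries 1 and 2 at 0.981 over expressed protein-coding genes. All these correlations are over genes that share the same libraries, and are descriptions.

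What did vary with strength was the share of genes in use. In the decile with the weakest peaks (a mean fold of up to 4.07), 63.7% of genes were expressed and 14.5% silent. In the next decile the shares were 74.6% and 7.77%, and in the decile with the strongest peaks (from a fold of 8.39), 88.6% and 3.09%. Among the expressed genes of each decile the median FPKM showed no steady run. It lay between 11.7 and 13.1 in the 7 weaker deciles and was 11.4, 10.7 and 10.2 in the strongest 3. Genes above 100 FPKM had a median strength of 5.60, below the 6.04 of genes above 1 to 10 FPKM, and both lie well within the quartiles of the other.

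**Figure D4:**
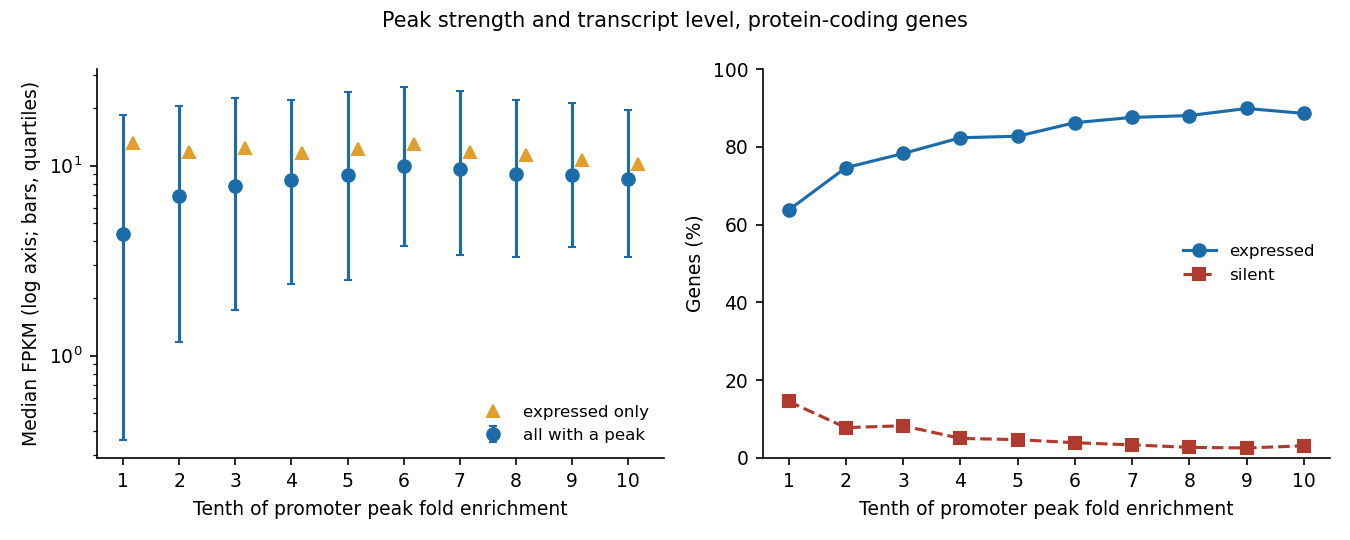
Left, median FPKM (log axis) of protein-coding genes with a peak in both P7 lists by decile of promoter peak fold enrichment, with quartiles as bars, and the median of the expressed genes alone as triangles. Right, the share of each decile called expressed or silent. The expressed share goes from 63.7% to 88.6%, whereas the median of expressed genes stays between 10.2 and 13.1 FPKM.

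Single genes show the same lack of scaling. Among all genes with a peak in both lists the most abundant, the translation elongation factor Eef1a1 (chr9:78478449-78489151), had 4656 and 4748 FPKM with promoter folds of 4.42 and 4.79, under the median of expressed genes (5.98). Ftl1 and Fth1, the ferritin light and heavy chains, had 2723 and 2167 and 2606 and 2036 FPKM, with mean folds of 3.18 and 4.79. Rps2, Rplp1 and Rplp0 of the ribosome, the chemokine Ccl2, the matrix glycoprotein Sparc and the lectin Lgals1 completed the 10 most abundant of these genes, with mean folds of 4.36 to 6.56. The miRNA gene Gm22133 was also in this set, at 3286 and 2646 FPKM. It lies inside Ftl1, so its reads cannot be told from those of Ftl1.

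At the other end, the strongest promoter peaks were assigned to genes of low or moderate level. The 3 strongest were at Gm24187 (a miRNA gene, folds of 23.8 and 27.6, 5.46 and 1.33 FPKM), Il31ra (the interleukin-31 receptor, 21.7 and 24.4, 0.0595 and 0.143 FPKM) and the pseudogene Gm13532 (20.8 and 23.3, 0.125 and 0 FPKM). The peak near Il31ra lay 2.12 and 2.07 kb from its start. Gm3226, with a mean of 26.9 FPKM, starts 724 bp from Il31ra on the same strand. The start to which this peak belongs cannot be told apart. Gm47882, Ftl1-ps2, Gm26445, Gm24270 and Gm11410, all non-coding or pseudogenes, had mean folds of 14.2 to 18.7. Ftl1-ps2 and Gm26445 overlap and had the same folds (17.6 and 19.2), and so stand for the same peak. Among expressed protein-coding genes whose peaks no other gene shared, the strongest were Sspn, which encodes sarcospan of the dystrophin complex (chr6:145931641-145965223), with folds of 16.9 and 18.5 and 4.42 and 3.64 FPKM, and Plcb4, a phospholipase C, with folds of 15.8 and 16.0 and 3.9 and 8.55 FPKM. The other 8 (0610010F05Rik, Tasp1, Cbwd1, Tpp2, Otud6b, Hmgcs1, Hsd17b12 and Cenpf) had mean folds of 12 to 12.5 and mean levels of 3.65 to 51.6 FPKM, so that near-equal peaks lay at promoters of very different output.

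The 481 expressed protein-coding genes without a peak had a median of 4.07 FPKM, against 11.7 FPKM for expressed genes with one, and 131 of them were above 10 FPKM. Their nearest peak in both lists was a median of 18.8 kb from a start, against 87.5 kb for silent genes without a promoter peak. A peak elsewhere in the gene body was present in both lists for 79 (16.4%), against 5.95% of the silent genes without a promoter peak. Their gene spans differed, with medians of 12.8 and 7.82 kb.

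The most abundant of them, Saa3 (chr7:46711998-46715700), had 1228 and 839 FPKM, with its nearest peaks 2.92 and 2.78 kb away, just beyond the limit. Mmp3 (chr9:7445822-7455975) had 403 and 594 FPKM with no peak within 99.2 kb in either list. Nppa (chr4:148000722-148002079) had 388 and 238 FPKM, with its nearest peaks at 14.8 kb in both lists. These 3 transcripts were abundant in both libraries while the lists held nothing at their starts.
The next were Tceal9, Pdpn (podoplanin), Igfbp3 (an insulin-like growth factor binding protein), Plac8, Hp (haptoglobin), Serpina3g and Lcn2 (lipocalin 2), with mean levels of 236 down to 122 FPKM. Saa3, Hp and Lcn2 are known as acute-phase genes. Serpina3g belongs to a cluster of near-identical copies, so its count is uncertain. Lcn2 had a peak 3.87 and 3.88 kb away, and for the others of this group the nearest peak was 9.61 kb away or farther in list 1.

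The longer P3 lists (95257 and 52040 peaks) held a promoter peak for some of these genes. Of the 481, 94 had a peak in both P3 lists and 153 in 1, and 413 were expressed at P3. Pdpn, Igfbp3 and Tceal9 were among those with a peak in both P3 lists. Saa3, Mmp3, Hp and Lcn2 had no promoter peak in any of the 8 mouse lists, and Nppa had one in 1 list at E18.5 and in 1 at P3. Of the expressed genes with a P7 peak, 10305 of 10364 had a peak in both P3 lists. In the shorter E18.5 lists (13149 and 14910 peaks) and P1 lists (29281 and 19753 peaks), 69.2% and 50.1% of the 10364 had a peak in both. The lists differ in length between time points, and the part of that in these counts was not tested.

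Expressed genes on chromosome X lacked a peak more often than those on any autosome. This comparison was chosen after the values were seen. Of 363 expressed X-linked genes, 53 (14.6%) had no peak in either list, against 2.76% to 6.90% on the 19 autosomes and 423 of 10987 (3.85%) on all of them. In list 1 alone 16.5% of X-linked and 5.76% of autosomal expressed genes lacked a peak, and in list 2 alone 22.0% and 6.28%. The gap was present at low and high levels, with 20.7% against 6.0% at 1 to 10 FPKM and 7.65% against 1.99% above 10 FPKM. In the longer P3 lists it was smaller. There 4.96% of the same X-linked genes had no peak in either list, against 1.04% to 4.48% on the autosomes. The part of list length in this was not tested. Where an X-linked gene had a peak in both lists, its median strength was 5.91, against 5.98 on the autosomes. The study used males and females, and the sex of the animals in each library is not given.
Tceal9 (chrX:136245079-136247139) had 244 and 229 FPKM and Cox7b (chrX:106015700-106022450) had 103 and 86.8 FPKM. Tspan6, Srpx2 and Rhox5 followed, with mean levels of 42.8, 42.0 and 26.6 FPKM. The nearest peak to Cox7b was 3.68 and 3.66 kb away, whereas Rhox5, a homeobox gene best known from the reproductive tract, had none within 202 kb.

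The 703 silent protein-coding genes with a peak in both lists had weaker peaks than the expressed genes, with a median strength of 4.82 (quartiles 4.04 and 6.01) against 5.98 (4.93 and 7.24). Their start lay inside a peak in both lists in 41.4%, against 86.8% of the expressed genes with a peak. In 199 of them (28.3%) another expressed gene started within 2.5 kb, on the opposite strand in 135 cases. The shares were 1.02% of silent genes without a peak and 22.0% of expressed genes with one. Of expressed protein-coding genes 91.3% had a promoter peak in both lists, so a silent gene beside an expressed start mostly falls in the peak class by the rule. The 1.02% is therefore low by construction. The 199 had a median strength of 5.90, close to that of expressed genes, and the 504 with no such neighbour had 4.59. The expressed neighbour started a median of 147 bp away, so the peak of the 199 can be that of the neighbour. Their closeness to expressed genes is therefore in part by construction. That left 181 silent genes with a start inside a peak and no expressed start nearby, with a median strength of 4.91.

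The 10 with the strongest peaks showed both kinds. Tshr (chr12:91384563-91549808) was at 0.0279 and 0 FPKM with folds of 10.7 and 11, and it starts 154 bp from the oppositely oriented centrosomal gene Cep128, which was expressed at 2.03 FPKM. Gm28778 and Ormdl1 start 16 bp apart, Gm45062 and Umad1 6 bp apart, Ccnb1ip1 and Rpph1 35 bp apart, and Gm43738 and Fdps 216 bp apart, each pair on the same strand. In these 5 genes the start to which the peak belongs cannot be told apart, and reads of overlapping partners cannot be either.
For the other 5 no expressed start lay within the window. Trim9, a brain ubiquitin ligase (chr12:70244533-70347614), was listed at 0 in both libraries under folds of 11.8 and 9.92. Catspere2 (chr1:177983423-178172704) was at 0.0314 and 0.0247 FPKM with folds of 12.9 and 8.83. Asmt, the last enzyme of melatonin synthesis, Pfn4, a testis profilin, and Ccdc150 had mean folds of 12.4, 10.1 and 9.96 and at most 0.0516 FPKM. Every one of the 10 was also open in both E18.5 lists and in both P3 lists. At P1, Trim9 and Gm45062 had a peak in 1 list and the others in both.

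Few silent genes with a P7 peak were called expressed earlier. Of the 703, 18 (2.56%) were expressed at E18.5, against 32 of the 6283 silent genes without a peak (0.509%). At P1 and at P3, 1 of the 703 was expressed and 0 of the 6283. A peak in both lists was present for 226 of the 703 at E18.5 (32.1%), for 178 at P1 (25.3%) and for 651 at P3 (92.6%). These shares were 69.2%, 50.1% and 99.4% of expressed genes with a P7 peak, and 0.0159%, 0.462% and 2.94% of silent genes without one.

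Promoter sequence, which the classes do not use, differed between the groups. Over the 300 bases from 250 before to 50 after the start, the median ratio of observed to expected CpG was 0.768 in expressed genes with a peak, 0.547 in silent genes with a peak, 0.298 in expressed genes without one and 0.167 in silent genes without one. Chromosome 18 was left out of these sequence counts. A promoter was called CpG-rich at a ratio of at least 0.6 and a GC content of at least 50%, as 41.8% of 21417 promoters were. CpG-rich promoters were 68.6%, 39.5%, 17.2% and 6.15% of the 4 groups in that order. The groups that went against the rule therefore lay between the others.

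CpG content and transcription each went with an open promoter. Among expressed genes 96.5% of CpG-rich and 81.7% of CpG-poor promoters had a peak in both lists. Among silent genes the shares were 35.3% and 6.24%. Expressed genes without a peak numbered 79 of 7181 with a CpG-rich promoter and 381 of 3881 with a CpG-poor one. On chromosome X the expressed genes without a peak were 6.15% of CpG-rich and 22.4% of CpG-poor promoters, against 0.971% and 9.07% on the autosomes, so the X-linked gap was present in both kinds.

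The motifs were searched as letters on both strands in the same 300 bases. TATAAA was in 12.6% of all promoters, in 6.62% of expressed genes with a peak and in 17.8% of expressed genes without one. GGGCGG, the core letters bound by Sp1, was in 43.2% of all promoters, and in 63.5% and 30.2% of these groups. CCAAT was in 38.8% of all, and in 39.1% and 35.7%. TGANTCA was in 6.91% of all, and in 4.52% and 11.3%. For the 6183 silent genes without a peak, TATAAA and TGANTCA were at 22.9% and 10.4%, close to or above the expressed genes without a peak. A match is a description of the letters and not a bound site.

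The gene lists place these patterns in known functions. The lists were chosen with results of these data known. Of all protein-coding genes 57.5% had a peak in both lists, 6.81% in 1 and 35.7% in neither. Of the expressed ones 91.3% had a peak in both lists, and lists made up mostly of expressed genes are to be read against that share. Nuclear genes of the respiratory chain were open in 14 of 16 (87.5%) and genes of fatty acid oxidation in 11 of 12 (91.7%). All were expressed, and both shares were near that of expressed genes. Atp5g1 and Ndufv1, subunits of the ATP synthase and of complex I, had some of the strongest promoters among them, with folds of 10.4 and 8.81 and of 12.6 and 8.04, at 178 and 109 and at 31.3 and 25 FPKM. Cytosolic ribosomal proteins were open in 75 of 82, with a median level of 650 FPKM. The 3 without a peak were the tissue-restricted copies Rpl10l, Rpl39l and Rpl3l, and none of these reached 1 FPKM.

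Sarcomere, calcium handling and natriuretic peptide genes were split between the classes. Of 20 cardiomyocyte genes, 11 had a peak in both lists, 5 in 1 and 4 in neither, at a median of 95.9 FPKM. Of all protein-coding genes above 10 to 100 FPKM, 94.3% had a peak in both. Cardiac troponin T (Tnnt2), the most abundant, had 710 and 330 FPKM with folds of 3.8 and 3.53. The alpha myosin heavy chain Myh6 had 190 and 68.5 FPKM with folds of 2.97 and 4.28. Cardiac actin Actc1 had 457 and 217 FPKM, with no promoter peak in list 1 and a fold of 3.74 in list 2. Strengths of the 11 open genes lay between 3.15 and 5.58, all below the median of 5.98.
The 4 without a peak were Nppa, Pln (phospholamban, 32.7 and 16.1 FPKM), Myl7 (the atrial light chain, 101 and 71.6 FPKM) and Myh7 (the fetal beta heavy chain, 7.51 and 5.2 FPKM). Peaks lay 3.31 and 3.29 kb from Myl7 and 4.98 and 4.76 kb from Myh7. With list 2 alone 16 of the 20 were open, and with list 1 alone 11. Of the 12 cardiac transcription factors, 10 were open in both lists, Nkx2-5 in list 2 alone and Tbx5 in neither. Gata4 had 50.1 and 41.8 FPKM with folds of 4.37 and 4.81, and Mef2a 9.66 and 9.83 FPKM with folds of 6.60 and 7.03.

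Genes of other cardiac cells varied in how many were open. Endothelial genes were open in both lists in 4 of 12 although all 12 were expressed, and smooth muscle and pericyte genes in 6 of 10, with all 10 expressed. Of 12 fibroblast genes 10 had a peak in both lists, and the median level of the list was 336 FPKM. Collagen genes Col1a2 and Col3a1 had 651 and 834 and 523 and 755 FPKM. The proteoglycan Lum was the one without a peak, at 29.3 and 32.5 FPKM, with the nearest peak 48.3 kb away. All 12 immediate early genes were open in both lists and expressed, from Fosb at 1.04 and 1.40 FPKM to Ier3 at 299 and 354 FPKM. Their median strength was 4.15. Of 12 housekeeping genes 11 were open in both lists, Actb in list 2 alone, and of 6 epicardial genes 4 were. Macrophage genes mostly had no peak, with 2 of 10 open in both lists and 4 expressed without a peak, among them C1qa, C1qb and C1qc, the subunits of complement C1q, with means of 4.23, 3.56 and 2.9 FPKM. Of 7 erythroid genes 6 had no peak, and the globin genes among them reached at most 4.24 FPKM in a library.

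**Figure D5:**
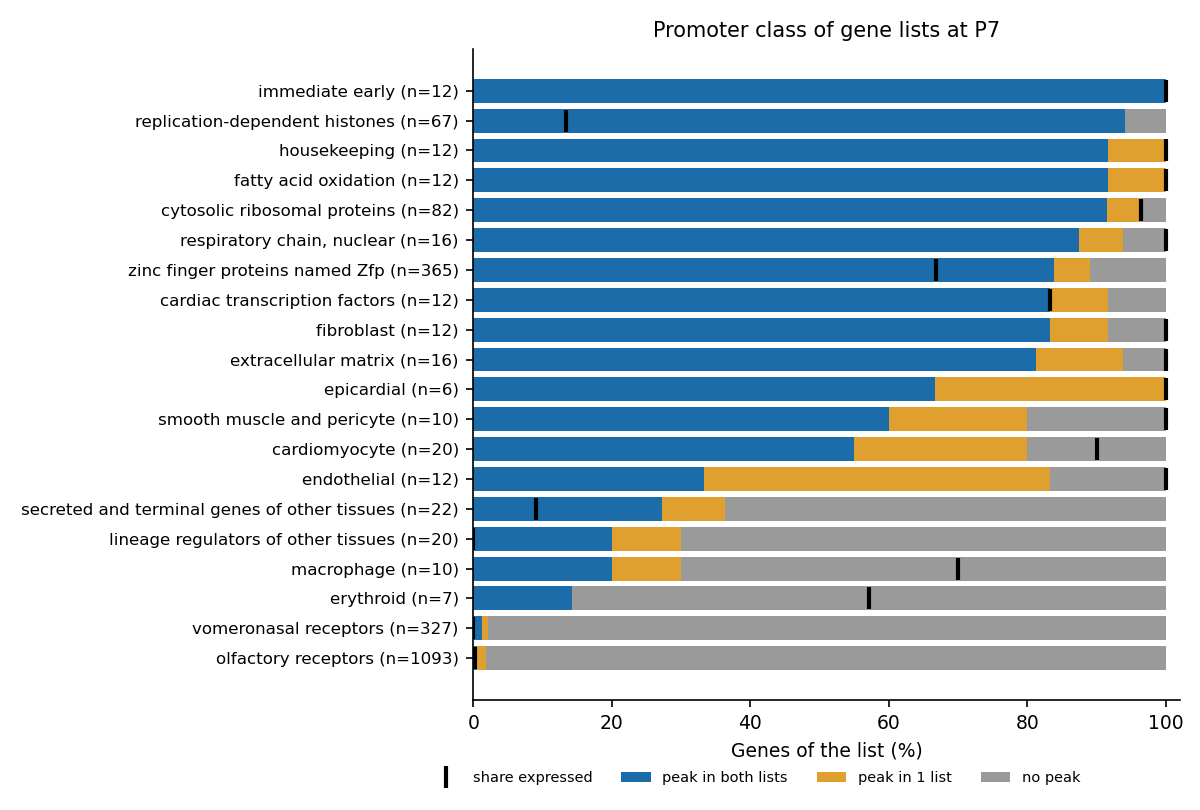
Share of each gene list (% of its protein-coding genes) with a promoter peak in both P7 lists, in 1 list or in neither, with the share called expressed as a black tick. The histone list is open in 94.0% and expressed in few genes. For cardiomyocyte, endothelial, smooth muscle and pericyte, epicardial, macrophage and erythroid genes, among others, the tick lies to the right of the open share.

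Replication-dependent histone genes were mostly open and little detected. Of 67, 63 had a peak in both lists, but 9 were called expressed and the median level was 0.430 FPKM. Neighbouring histone genes can share a peak, so the 63 genes do not stand for as many separate peaks. Hist1h2bl, Hist1h2ai and Hist1h3h, for example, had the same folds (4.19 and 4.80). Most of these mRNAs end in a stem-loop and carry no poly(A) tail, the libraries were made by poly(A) selection, and the part of the selection in these levels was not tested. The copies share sequence, so their single levels are uncertain. Hist1h1c and Hist1h2bc, at 49.3 and 37.8 and at 43.8 and 39.4 FPKM, were the highest. Zinc finger genes named Zfp were open in 306 of 365, of which 232 were expressed, with a median strength of 6.49 and a median level of 2.82 FPKM.

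Genes of other organs were mostly silent and without a peak. Of 1093 olfactory receptor genes 5 had a peak in both lists, and of 327 vomeronasal receptor genes 4 had. Of 20 regulators of other lineages, 14 had no peak, 18 were silent and none was called expressed. The 4 with a peak in both lists were Lhx2, Pax6, Neurog2 and Dlx5, developmental regulators of the brain and skeleton, with mean folds of 3.46 to 4.84 and at most 0.188 FPKM in a library. Pax6 was at 0 and 0.0179 FPKM with its start inside both peaks. Of 22 terminal genes of other tissues, 14 had no peak and 6 had a peak in both lists, among them Opn1sw, the blue cone opsin, with folds of 5.5 and 5.6 at 0.0594 and 0.0231 FPKM.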

How the data were processed

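ATAC-seq and RNA-seq libraries of P7 were used, and peak lists and RNA-seq files of E18.5, P1 and P3 only for the comparison across time points. HiChIP and rat libraries were not used here. Per the study's methods, the authors trimmed ATAC-seq reads with cutadapt, aligned them to mm10 with Bowtie2, removed duplicates with Picard among other tools, and called peaks in each library with MACS2. The deposited peak lists give the fold enrichment over local background, the −log10 p and −log10 q and a score, which is the −log10 q multiplied and cut to a whole number. The authors removed blacklisted regions, and the Tn5 shift is not given in the sources used here. RNA-seq reads were aligned with HISAT2 2.1.0, and per the file headers StringTie 1.3.5 gave FPKM, TPM and coverage for each GENCODE vM21 transcript in each library. Where the files give no read counts, depth was worked out from coverage (33.3 and 35.9 reads of 150 bp per kb at an FPKM of 1), and the depth behind the peak lists is unknown.

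Values were computed with Python 3.11.15, numpy 2.4.6, pandas 2.3.3 and pysam 0.24.0, and figures were drawn with matplotlib 3.10.9. Transcript FPKM was summed per gene. The 37 genes of the mitochondrial genome, listed at 0 in all 8 mouse RNA-seq libraries, were left out. Medians were compared as log2(FPKM + 1), with a pseudocount of 1, and no low-value filter was used. With 1 time point there is no contrast between groups of samples, so no test was run, and the spread is given over the 4 combinations of 1 RNA-seq library and 1 peak list. The assignment of peaks to genes was tested on simulated data. Promoter sequence was read from RefSeq GRCm38.p6, and 500 of 500 windows compared with the RefSeq promoter table were identical.

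The genes named are the members of the lists where a list is described, and the 10 highest in each of 5 sets: FPKM with a peak, FPKM of protein-coding genes without one, peak strength, peak strength of silent protein-coding genes, and unshared peak strength of expressed protein-coding genes. The classes, lists and rules were chosen with earlier results of these data known. Tspan6, Srpx2, Rhox5 and the promoters printed were chosen after their values were seen. Alternatives changed the window, the thresholds, the unit, the filter, the peak value, the lists and the genes.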

Additional observations from a re-analysis of the deposited data

How the results depend on the processing

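No paired analysis was possible because the results come from no test and the replicate numbers tie no ATAC-seq library to an RNA-seq library. Of 83 alternative values, 38 stayed within the spread between libraries, or within 1.5 times for counts. The mitochondrial genes kept in, and the correlation over expressed genes, were chosen after seeing the data. Where no cause follows from the alternative's construction, the cause was not tested.

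The difference in expressed share (60.2 points) was 68.2, 65.5 and 53.8 with windows of 0.5, 1 and 5 kb, 63.6 with TPM, 63.3 and 44.1 with expression called at 0.5 and 5, 66.6 without genes whose windows overlap, 76.0 over protein-coding genes and 62.5 with the stronger 50% of each list. Leaving out 1 library gave 53.7 to 61.0. The difference in median log2 level (2.36) was 2.81, 2.67 and 1.84 with those windows, 3.35 with TPM, 2.67 with a filter at 0.1 FPKM, 2.62 without overlapping windows, 3.21 over protein-coding genes, 5.41 with a pseudocount of 0.1 and 2.65 with the stronger 50%, and 1.89 to 2.37 with 1 library left out.

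The correlation of strength with FPKM (0.138) turned to -0.031 over expressed genes. It was 0.0800, 0.0988 and 0.168 with windows of 0.5, 1 and 5 kb, 0.200 with the −log10 q, 0.0790 with the filter, 0.200 without overlapping windows, 0.0969 with lists of equal length, 0.0956 over protein-coding genes, 0.222 with peaks summed and 0.0420 with the stronger 50%. It was 0.136 to 0.228 with 1 library left out, and 0.228 without ATAC-seq replicate 1.

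Expressed genes without a peak (998) numbered 1534 with TPM, 388 at a threshold of 5, 481 over protein-coding genes and 2408 with the stronger 50%, and 1086 to 1341 with 1 library left out. Silent genes with a peak (3318) numbered 1769 with a 0.5 kb window, 1031 without overlapping windows, 703 over protein-coding genes, 2088 if listed at 0, 5044 if under 0.5 FPKM and 1868 with the stronger 50%, and 3717 to 4845 with 1 library left out.

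With 2 libraries per assay, a peak missing from a list is not shown to be closed chromatin, and levels near 0.1 FPKM rest on few reads.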
